A study of Rattus norvegicus with 10 samples.

Results

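The 10 genes examined here in rat liver are read as markers of T cells, natural killer (NK) cells and neutrophils: Cd52, Ccl5, Cd2, Cd3e, Cd8a, Klrd1, Prf1, Gzmb, S100a8 and S100a9. The members were all probe sets that the annotation of the array pairs with exactly 1 gene of these names, which gave 14 of the 31042 probe sets tested. All 10 genes were measured: 7 by 1 probe set, 2 by 2 (Cd3e and Gzmb) and 1 by 3 (Cd8a). A probe set is the group of short oligonucleotides on the array that together read 1 transcript. The arrays came from the liver of male Sprague-Dawley rats, 5 weeks old per the labels, with 1 array per rat. The iron-deficient group of 5 rats had free access to a diet with about 3 ppm iron for 3 days, and the 5 rats of the pair-fed group received the control diet with 48 ppm iron over the same days, in amounts matched by pair feeding. Livers were taken after 1.5 h of feeding per the labels, which the methods word as 1.5 h past it. Free access and pair feeding went with the diets, so feeding mode and iron content cannot be told apart. The comparison addresses whether a short iron-deficient diet was accompanied by a shift in lymphocyte or neutrophil transcripts in the liver.

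The liver holds many resident lymphocytes among its hepatocytes, and NK cells are unusually frequent there in rodents. T cells recognise antigen through a receptor whose signal is carried by the CD3 chains, and cytotoxic T cells and NK cells kill by releasing perforin, which opens the membrane of the target cell, together with granzymes, which cleave proteins inside it. Neutrophils circulate in the blood, enter tissue on injury or infection and carry large amounts of calprotectin, the calcium-binding pair S100a8 and S100a9. Whole liver was measured, so for every value below fewer cells of a type and less RNA per cell cannot be told apart.

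Cd52 was the 1 member past the rank products: its log2 signal fell to 4.87 in the iron-deficient group from 5.77 in the pair-fed group, a 1.86-fold difference. The T cell genes Cd2, Cd3e and Cd8a and the chemokine gene Ccl5 did not pass the rank products. Nor did the NK and cytotoxic genes Klrd1, Prf1 and Gzmb or the neutrophil genes S100a8 and S100a9. Values are log2 robust multiarray average (RMA) signals, on which a difference of 1 is a 2-fold change, and differences are iron-deficient minus pair-fed. Calls come from rank products, which rank the probe sets by their difference in each of the 25 comparisons of 1 rat of either diet with 1 of the other and accept those with a false discovery rate under 0.05. Over all probe sets the rank products called 0.561% lower and 0.303% higher in the iron-deficient group, and among the 14 member probe sets they called 1 lower and 0 higher. Standard errors and intervals come from limma, a linear model that shares information on the spread between probe sets. limma passed 0 of the 14 after adjustment and 2 at an unadjusted p under 0.05 (Cd52 and Klrd1), where 6.98% of all probe sets lay under that value. Complete separation of the diets was seen in 0 of the 14, against 1.29% of all probe sets. Means were lower in the iron-deficient group for 12 of the 14, with a median difference of -0.14, beside 48.6% of all probe sets and a median of 0.00. Without Cd52 the median of the other 13 was -0.11 and their range -0.30 to 0.05.

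Most members were near the lower end of the array's range. A probe set was counted as dim when its mean over the 10 arrays was under 5, and 8 of the 14 were dim, beside 31.1% of all probe sets. Every probe set of Cd8a, Klrd1, Gzmb and S100a8 was dim. Differences of dim probe sets may be understated, as background makes up more of a low signal. Albumin (Alb), the main product of hepatocytes, stood at 15.35 in both groups, and Ptprc, the common leukocyte antigen CD45, at 7.38 ± 0.26 and 7.46 ± 0.33 (SD, n = 5) in the iron-deficient and pair-fed groups. Iron-deficient array 1 stood apart from the others, with a mean correlation of 0.9915 with them (the other arrays, 0.9935 to 0.9941) and the largest gap between the 3′ and 5′ control probe sets, a measure of RNA integrity (0.36 for GAPDH and 1.74 for actin, against at most 0.11 and 1.33 elsewhere).

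**Figure D1:**
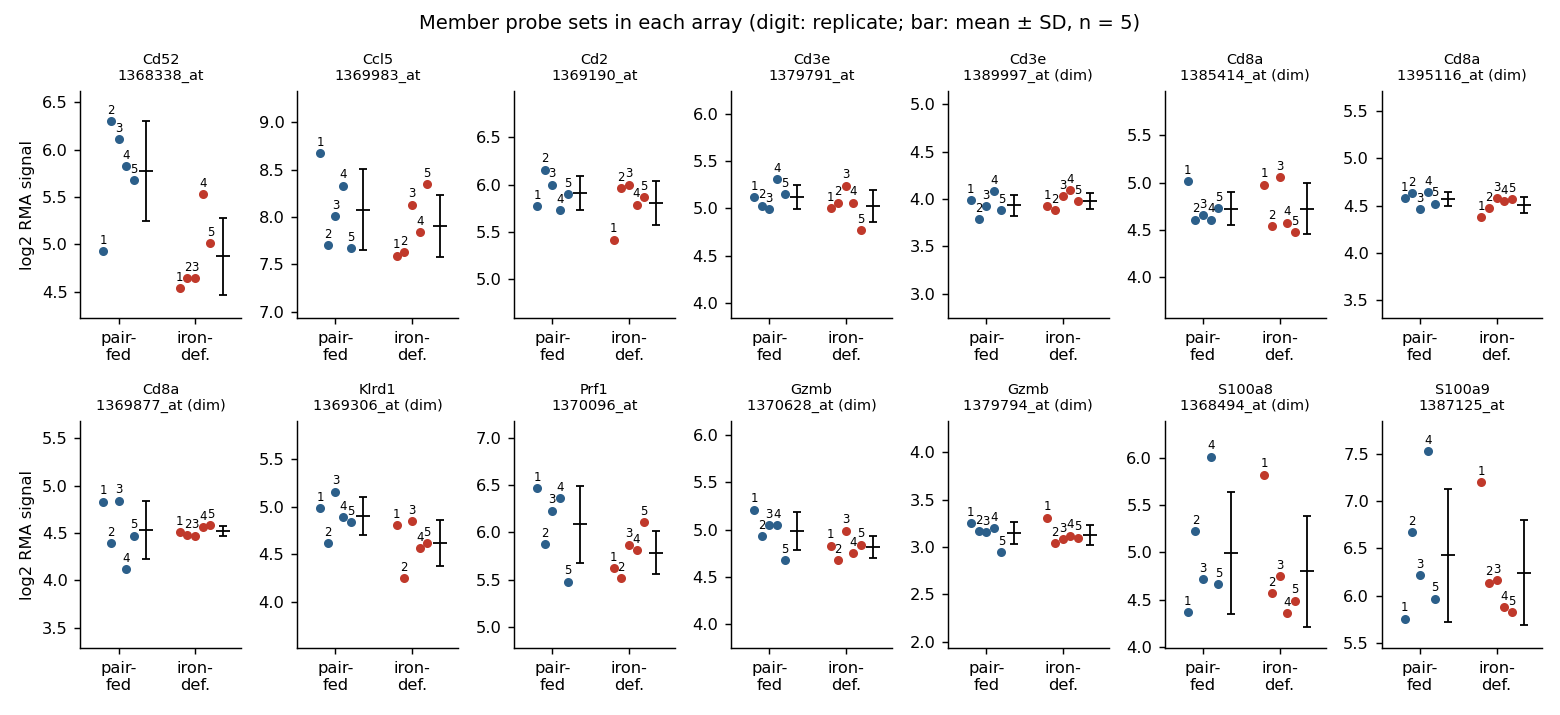
Signal of the 14 member probe sets in each array (y axis, log2 RMA signal, every panel spanning the same number of units), with pair-fed arrays in blue, iron-deficient arrays in red, the replicate number above each point and the mean ± SD of 5 arrays as a bar. The groups overlap in every panel; Cd52 shows 4 of 5 pair-fed arrays above all iron-deficient arrays, and S100a8 and S100a9 show pair-fed 4 and iron-deficient 1 above the rest.

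Promoter sequence is shown for 4 members, because these carry the results that follow. They are Cd52, the member past the rank products, Prf1 and Gzmb, which varied together over the 10 rats, and S100a9. S100a9 is the brighter gene of the calprotectin pair. Each line gives the 250 bases before the start of the gene, 5′ to 3′ on the strand of the gene, from RefSeq (rat assembly GRCr8). Capitals mark matches, on either strand, to AGATAA or TGATAA (letters bound by GATA factors), GAGGAA (ETS factors), TTGCNNAA (C/EBP factors) or TATAAA (the TATA box).
Cd52, chr5:151605097-151605346, minus strand: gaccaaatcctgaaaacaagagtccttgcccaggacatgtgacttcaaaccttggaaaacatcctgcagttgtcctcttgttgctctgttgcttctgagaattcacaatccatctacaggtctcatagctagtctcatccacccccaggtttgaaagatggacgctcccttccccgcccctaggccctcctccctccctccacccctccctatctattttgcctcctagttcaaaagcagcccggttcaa
Prf1, chr20:29788790-29789039, plus strand: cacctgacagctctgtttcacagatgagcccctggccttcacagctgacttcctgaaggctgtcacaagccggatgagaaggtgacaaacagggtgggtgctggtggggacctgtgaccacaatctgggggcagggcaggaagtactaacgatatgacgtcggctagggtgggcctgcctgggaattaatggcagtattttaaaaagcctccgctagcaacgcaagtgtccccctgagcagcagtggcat
Gzmb, chr15:34462470-34462719, minus strand: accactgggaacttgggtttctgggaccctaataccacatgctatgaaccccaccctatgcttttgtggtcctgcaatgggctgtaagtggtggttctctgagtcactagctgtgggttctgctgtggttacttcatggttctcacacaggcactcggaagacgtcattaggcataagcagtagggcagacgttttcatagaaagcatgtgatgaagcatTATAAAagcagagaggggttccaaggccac
S100a9, chr2:178490623-178490872, minus strand: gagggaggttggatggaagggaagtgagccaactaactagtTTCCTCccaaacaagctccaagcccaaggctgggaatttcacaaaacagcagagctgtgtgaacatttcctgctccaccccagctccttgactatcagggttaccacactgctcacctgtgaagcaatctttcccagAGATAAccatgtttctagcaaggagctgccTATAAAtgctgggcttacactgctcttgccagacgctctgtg
Promoter windows were given for 7 of the 10 members, and Ccl5, Klrd1 and S100a8 were not among them. The windows of Cd52 and Prf1 held none of these exact letters. Other forms of the letters that GATA, ETS or C/EBP factors bind were not searched, so their absence is not shown. That of Gzmb held TATAAA on the gene's strand at 30 to 25 bases before the start. That of S100a9 held TATAAA at 42 to 37 bases and AGATAA at 72 to 67 bases before the start on its own strand, and GAGGAA on the other strand at 209 to 204 bases (seen as TTCCTC). Cd2 and Cd3e each held GAGGAA on the other strand and Cd8a held TGATAA. Such matches are common: of 33469 rat promoters of this length, 12.9% held TATAAA, 10.3% AGATAA, 7.97% TGATAA, 23.3% GAGGAA and 9.22% TTGCNNAA. A match is a description of the letters and not of a bound site.

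Cd52 encodes a very short, heavily glycosylated peptide that is anchored to the surface of lymphocytes and monocytes by a lipid. Its 1 probe set (1368338_at) read 4.54, 4.64, 4.64, 5.53 and 5.01 in iron-deficient rats 1 to 5, and 4.93, 6.30, 6.11, 5.83 and 5.68 in pair-fed rats 1 to 5. Pair-fed rats 2 to 5 lay above every iron-deficient rat, while pair-fed rat 1 lay below iron-deficient rats 4 and 5. The group means were 4.87 ± 0.41 and 5.77 ± 0.53 (SD, n = 5), so that the iron-deficient mean was itself under the dim level. Cd52 was lower by 0.89 (difference -0.89, SE 0.245, 95% interval -1.43 to -0.36), which put it at place 22 of 31042 counted from the most negative difference. In the rank products, 0 of 3104200 permuted values were as small, an estimated false discovery rate of 0. The exact permutation test over the splits of 5 against 5, 2-sided, gave p = 0.0238, where 0.00794 is the smallest p it allows. Rank products take no account of a probe set's own spread between rats, which for Cd52 was above the median SD within groups of all probe sets (0.136), whereas limma does. The limma adjusted p was 0.601, and the lowest adjusted p of any probe set was 0.397. Cd52 passed the rank products without each of the 10 arrays in turn, with differences from -1.10 to -0.76, but when ranks were summed instead of multiplied it had a false discovery rate of 0.0905.

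Cd52 was high in the arrays in which most genes of developing red cells were high. Likeness was measured as Pearson's r over the 10 arrays after the group means were subtracted, so that the difference between diets did not enter it, against 14216 other genes. The 5 genes most like Cd52 were Ahsp (r = 0.953), which encodes the chaperone of alpha globin, Alas2 (0.939), which encodes the first enzyme of heme synthesis in red cells, Car6 (0.924), Gpr149 (0.915) and Alox15 (0.905). Of these, Car6 and Gpr149 were dim (means of 4.07 and 4.01), so genes of low signal also reached an r this high. Ahsp, for example, read 5.94, 6.60, 6.51, 7.25 and 6.84 in iron-deficient rats 1 to 5 and 6.83, 8.27, 7.99, 7.77 and 7.66 in pair-fed rats 1 to 5. Pair-fed rat 1 had the lowest value of its group and iron-deficient rat 4 the highest of its group in both genes. Of 11 red cell genes measured, 7 were among the 50 genes most like Cd52 and the median r was 0.85. Among those 50 was no gene of the other lists examined (T cell, NK cell, neutrophil, general leukocyte, B cell, macrophage and hepatocyte genes, and receptors and partners of the members) and no other member. The median r was 0.02 with 16 other T cell genes and -0.53 with 10 general leukocyte genes. Without pair-fed rat 1, the median r of Cd52 was 0.72 with the red cell genes and -0.14 with the general leukocyte genes. These r values were picked from many genes and share the same 10 livers, so they are a description with no p.

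Most of the red cell genes were also lower in the iron-deficient rats. Of the 11, the rank products called 9 lower and 0 higher, with a median difference of -0.74 and a mean level over the list of 7.11 to 7.67 in iron-deficient rats and 7.57 to 8.39 in pair-fed rats. Hemgn, an erythroid nuclear protein, differed by -1.23, Hba-a3, an alpha globin, by -1.15, Ahsp by -1.08 and Alas2 by -0.96, while beta globin (Hbb) differed by -0.67. This list, like the members, was chosen with results of these data known. Most red cell genes and Cd52 thus moved together both between the diets and from rat to rat. Nfe2 was called lower (-0.64) but had an r of -0.24 with Cd52, and Kel differed by 0.04 with an r of -0.15. The part of red cell precursors or blood in the Cd52 difference was not tested.

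**Figure D2:**
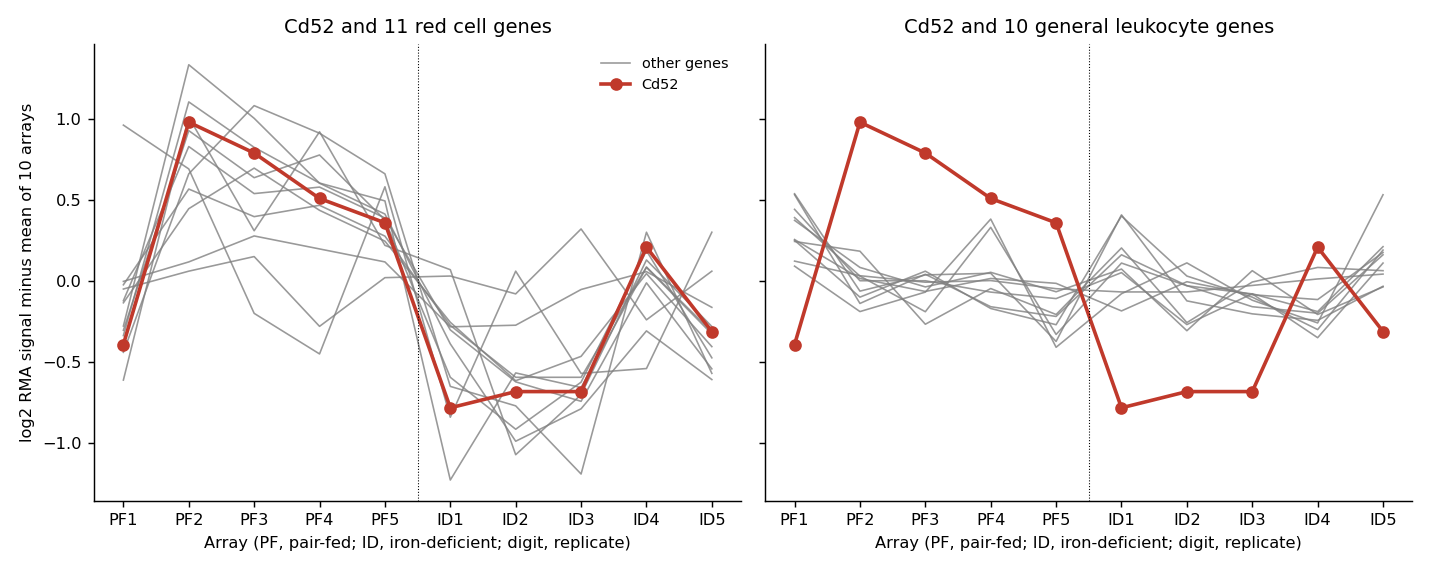
Signal of Cd52 (red) and of 11 red cell genes (left, grey) or 10 general leukocyte genes (right, grey) in each array, as log2 RMA signal minus the gene's mean over 10 arrays (y axis), for pair-fed (PF) and iron-deficient (ID) arrays by replicate number (x axis). Most red cell lines follow the Cd52 line, including its low point in PF1 and its rise in ID4, and the leukocyte lines do not (median r of 0.85 and -0.53 after group means were subtracted).

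Cd2, an adhesion receptor of T and NK cells that binds Cd48 in rodents, did not pass the test. Its probe set (1369190_at) read 5.42, 5.96, 6.00, 5.79 and 5.87 in iron-deficient rats 1 to 5 and 5.77, 6.16, 6.00, 5.73 and 5.90 in pair-fed rats 1 to 5. The groups overlapped, with iron-deficient rat 1 below every pair-fed rat and pair-fed rat 2 above every iron-deficient rat. The difference was -0.11 (SE 0.115, 95% interval -0.36 to 0.14), and -0.01 without iron-deficient rat 1. Its ligand gene Cd48 differed by -0.03.

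Cd3e encodes the epsilon chain of the CD3 complex, which defines T cells. The brighter of its probe sets (1379791_at) read 5.00, 5.06, 5.24, 5.06 and 4.77 in iron-deficient rats 1 to 5 and 5.12, 5.03, 4.99, 5.31 and 5.15 in pair-fed rats 1 to 5, a difference of -0.09 (SE 0.0901, 95% interval -0.29 to 0.10; -0.15 to -0.03 with 1 array left out). The dim one (1389997_at) read 3.92, 3.88, 4.03, 4.09 and 3.98 against 3.99, 3.79, 3.92, 4.08 and 3.88, a difference of 0.05 (SE 0.0699). The probe sets of this gene thus had differences of opposite sign, each under the SD within a group.

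Cd8a, the alpha chain of the CD8 coreceptor of cytotoxic T cells, had 3 probe sets and all were dim. The first (1385414_at) read 4.98, 4.54, 5.06, 4.58 and 4.48 in iron-deficient rats 1 to 5 and 5.02, 4.61, 4.66, 4.61 and 4.73 in pair-fed rats 1 to 5, a difference of 0.00 (SE 0.125; -0.08 without iron-deficient rat 3 and 0.07 without pair-fed rat 1). The second (1395116_at) read 4.38, 4.47, 4.58, 4.55 and 4.57 against 4.58, 4.63, 4.46, 4.64 and 4.52, a difference of -0.06 (SE 0.0643). For the third (1369877_at) the values were 4.51, 4.48, 4.47, 4.56 and 4.58 against 4.83, 4.39, 4.84, 4.12 and 4.47, a difference of -0.01 (SE 0.121). The sign of this last difference changed without pair-fed rat 1 or pair-fed rat 3 (0.06 each), and with 1 array left out it ran from -0.11 to 0.06. No difference between the diets was detectable for Cd8a at these low signals.

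The other T cell genes were not called either. Of 19 listed, 16 were measured, 8 of them dim, and 0 were called in either direction, with a median difference of -0.03. Over all probe sets 0.561% were called lower and 0.303% higher, so lists this short would mostly give 0 calls, here and below. Their mean level ran from 5.14 to 5.28 in iron-deficient rats and from 5.15 to 5.30 in pair-fed rats. The largest differences were those of Cd5, a T cell surface receptor (-0.27, SE 0.085, rank products false discovery rate 0.381), which was dim, and Il7r, the receptor chain for interleukin 7 (0.18, SE 0.192, false discovery rate 0.471).

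Prf1 encodes perforin, and it had the largest difference among the members that did not pass. Its probe set (1370096_at) read 5.62, 5.52, 5.87, 5.81 and 6.11 in iron-deficient rats 1 to 5 and 6.47, 5.88, 6.23, 6.36 and 5.48 in pair-fed rats 1 to 5. Pair-fed rats 1, 3 and 4 lay above every iron-deficient rat, whereas pair-fed rat 5 was the lowest of all. The difference was -0.30 (SE 0.174, 95% interval -0.67 to 0.08), with a false discovery rate of 0.167 in the rank products and p = 0.19 in the exact permutation test. It was -0.45 without pair-fed rat 5 (false discovery rate 0.0767) and -0.20 without pair-fed rat 1 (0.571).

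Gzmb encodes granzyme B, the protease that enters target cells through perforin. The brighter probe set (1370628_at), still dim, read 4.83, 4.68, 4.99, 4.75 and 4.84 in iron-deficient rats 1 to 5 and 5.21, 4.93, 5.05, 5.05 and 4.68 in pair-fed rats 1 to 5. As with Prf1, pair-fed rats 1, 3 and 4 lay above every iron-deficient rat and pair-fed rat 5 shared the lowest value with iron-deficient rat 2, and the difference was -0.17 (SE 0.0952, 95% interval -0.37 to 0.04, false discovery rate 0.82), or -0.11 without pair-fed rat 1. The other probe set (1379794_at) read 3.31, 3.04, 3.08, 3.12 and 3.10 against 3.25, 3.17, 3.16, 3.20 and 2.95, a difference of -0.02 (SE 0.0744) that changed sign without iron-deficient rat 2 or pair-fed rat 1 (-0.06 to 0.01).

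Klrd1 encodes CD94, which pairs with NKG2 chains to form receptors of NK cells. Its dim probe set (1369306_at) read 4.81, 4.25, 4.85, 4.56 and 4.62 in iron-deficient rats 1 to 5 and 4.99, 4.62, 5.16, 4.89 and 4.84 in pair-fed rats 1 to 5. All 5 iron-deficient rats lay under the pair-fed median, 2 of them under every pair-fed rat. The difference was -0.28 (SE 0.122, 95% interval -0.55 to -0.02), which did not pass: the false discovery rate in the rank products was 0.322, the limma adjusted p was 0.695, and the exact permutation test gave p = 0.0714. Without iron-deficient rat 2 the difference was -0.19.

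Ccl5, also called RANTES, encodes a chemokine that T and NK cells release and that draws other leukocytes to them. Its probe set (1369983_at) read 7.59, 7.63, 8.13, 7.84 and 8.35 in iron-deficient rats 1 to 5 and 8.67, 7.70, 8.01, 8.33 and 7.67 in pair-fed rats 1 to 5. High and low rats occurred in each group, and the difference was -0.16 (SE 0.199, 95% interval -0.60 to 0.27, false discovery rate 0.554). With 1 array left out it ran from -0.28 without iron-deficient rat 5 to -0.02 without pair-fed rat 1.

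**Figure D3:**
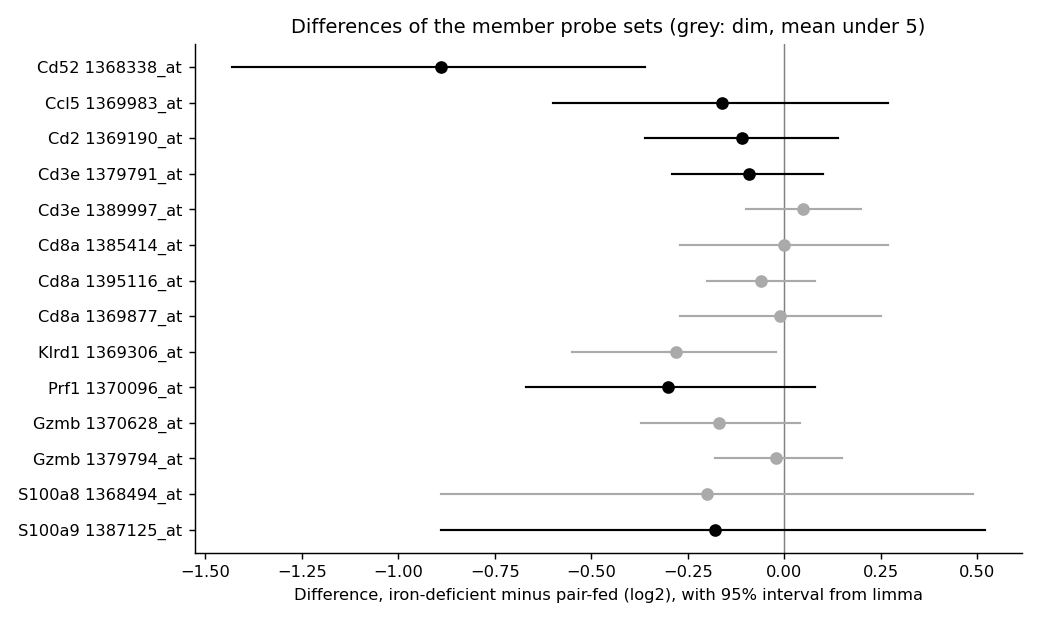
Difference between the diets for each member probe set (x axis, iron-deficient minus pair-fed, log2) with its 95% interval from limma; grey marks dim probe sets. The intervals of Cd52 (-1.43 to -0.36) and Klrd1 (-0.55 to -0.02) lie below 0, neither with a limma adjusted p under 0.05, and all others include 0.

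The other NK and cytotoxic cell genes gave 0 calls. Of 20 listed, 17 were measured, 7 of them dim, with a median difference of -0.01 (-0.04 to 0.02 with 1 array left out). Their mean level ran from 5.37 to 5.47 in iron-deficient rats and from 5.26 to 5.56 in pair-fed rats. Klrg1, an inhibitory receptor of NK and effector T cells, was higher in its mean by 0.34 (SE 0.234, false discovery rate 0.174), and Il2rb, a receptor chain for interleukins 2 and 15, by 0.16 (SE 0.151, false discovery rate 0.654), and neither passed.

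S100a8 and S100a9 form calprotectin and spread widely between rats, over 1.65 and 1.77 log2 units from the lowest to the highest array (1.76 for Cd52). S100a8 (1368494_at), a dim probe set, read 5.82, 4.57, 4.75, 4.36 and 4.49 in iron-deficient rats 1 to 5 and 4.37, 5.22, 4.72, 6.01 and 4.66 in pair-fed rats 1 to 5. S100a9 (1387125_at) read 7.20, 6.14, 6.17, 5.88 and 5.83 against 5.76, 6.67, 6.22, 7.53 and 5.97. In both genes iron-deficient rat 1 and pair-fed rat 4 were high and the other rats of each diet overlapped. The differences were -0.20 (SE 0.317, 95% interval -0.89 to 0.49) and -0.18 (SE 0.325, 95% interval -0.89 to 0.52), with false discovery rates of 0.275 and 0.308. Without pair-fed rat 4 their signs turned, to 0.05 and 0.09, and without iron-deficient rat 1 they were -0.45 and -0.42. Iron-deficient rat 1 was also the array with the largest gap between 3′ and 5′ control probe sets. Pair-fed rat 4 followed for actin (1.33) but not for GAPDH (0.09, below 0.11 in iron-deficient rat 4). Iron-deficient rat 5 had nearly the same actin gap (1.32) and was not high in S100a8 (4.49) or S100a9 (5.83). The part of RNA integrity in these values was not tested.

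The other neutrophil genes gave 0 calls. Of 23 listed, 14 were measured, 9 of them dim, and their median difference was -0.02. Their mean level ran from 4.68 to 4.78 in iron-deficient rats and from 4.66 to 4.75 in pair-fed rats. Pair-fed rat 4 was the highest of its group, whereas iron-deficient rat 1 was not the highest of its own. Defa5, a defensin, differed by 0.16 (SE 0.1) and Il1r2, the decoy receptor for interleukin 1, by 0.11 (SE 0.0709). After group means were subtracted, the median r of S100a8 with these 14 genes was 0.05. The single values ran from -0.72 to 0.79, the latter with Defa5, and 8 were above 0.

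Across the 10 rats some members varied together. Among the 45 pairs of members, each gene by its brightest probe set, 3 passed for Pearson's r after Benjamini-Hochberg adjustment over the 45. S100a8 and S100a9 gave r = 0.99 (permutation p = 1e-05, the smallest that 100000 resamples can give, adjusted p = 0.00045) and Spearman's rho of 0.94 (permutation, adjusted p = 0.0099). Without the pair of arrays farthest out, iron-deficient rat 1 and pair-fed rat 4, r was 0.95, and after subtraction of the group means it was 0.99. Prf1 and Gzmb gave r = 0.88 (permutation p = 0.00103, adjusted p = 0.0154) and rho of 0.93 (permutation, adjusted p = 0.0101), and r = 0.78 without pair-fed rats 1 and 4. After subtraction of the group means their r was 0.85, with an adjusted permutation p of 0.106 that no longer passed. Ccl5 and Prf1 gave r = 0.89 (permutation p = 0.00089, adjusted p = 0.0154), 0.85 without iron-deficient rat 5 and pair-fed rat 1, and 0.90 after subtraction of the group means (adjusted permutation p = 0.0468). Their rho of 0.84 did not pass (permutation, adjusted p = 0.0549). Ccl5 and Gzmb gave r = 0.75 (permutation, adjusted p = 0.145). Ccl5, Prf1 and Gzmb were each highest in pair-fed rat 1, with pair-fed rat 5 and iron-deficient rat 2 among the 3 lowest. S100a8 and S100a9 were highest in pair-fed rat 4 and near their lowest in pair-fed rat 1.

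**Figure D4:**
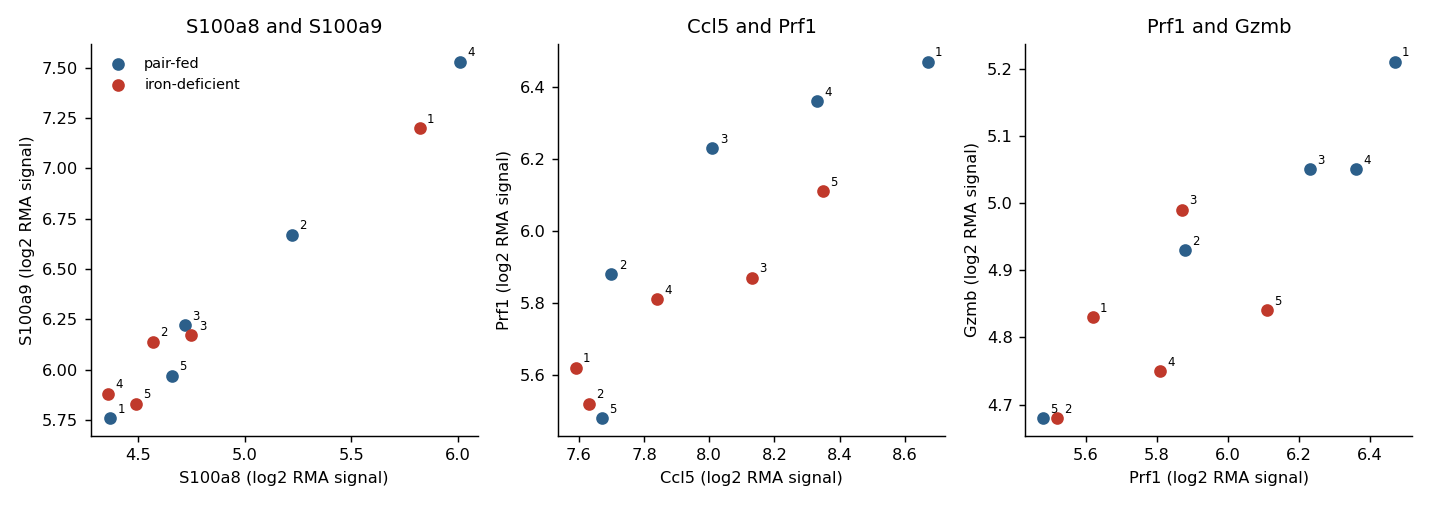
Each point is 1 array, placed by the log2 RMA signals of the genes named on its axes, with pair-fed arrays in blue, iron-deficient arrays in red and the replicate number beside it. The points rise together in all 3 panels (r = 0.99, 0.89 and 0.88 from left to right), with both diets along the lower part of each rise and pair-fed 1, 3 and 4 at the top of that of Prf1 and Gzmb.

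**Figure D5:**
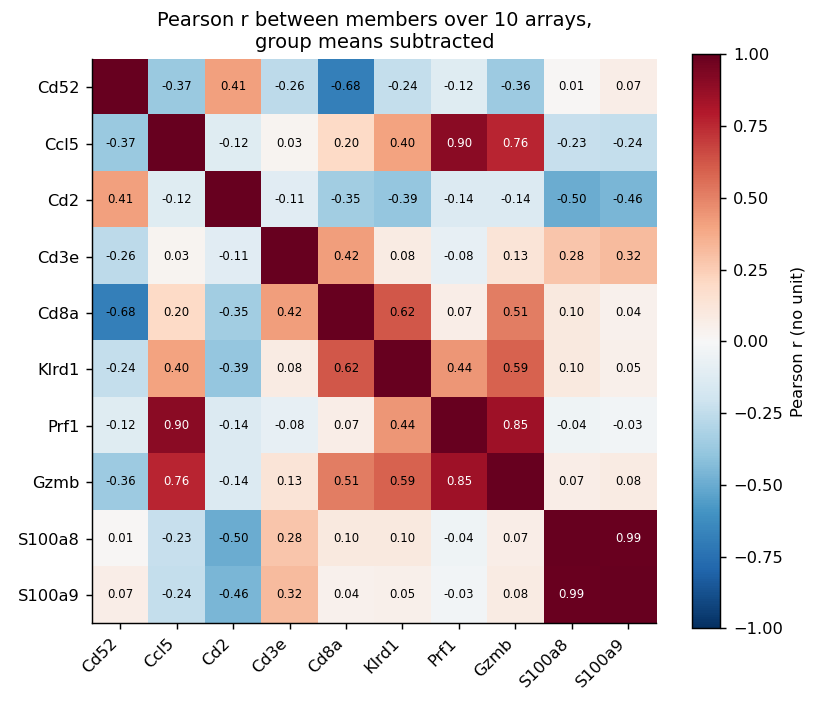
Pearson's r between the members over 10 arrays after the group means were subtracted (colour scale from -1 to 1, value in each cell, each gene by its brightest probe set). S100a8 with S100a9 (0.99) and Ccl5 with Prf1 (0.90) passed the adjusted permutation test; Cd52 had no r above 0.41 with another member, and its lowest was -0.68 with Cd8a (adjusted permutation p = 0.328).

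The likeness over all genes was also taken for Ccl5 and for S100a8. The 5 genes most like Ccl5 were Elapor1 (0.937), Isl2 (0.932), Ctrc (0.910), Slc1a1 (0.909) and Tnik (0.908), and Prf1 was at place 7 of 14216 (0.899). Ctrc was dim (mean of 4.55). The median r of Ccl5 was 0.51 with the other NK and cytotoxic genes, 0.60 with the general leukocyte genes and 0.68 with 9 Kupffer cell and macrophage genes, and without pair-fed rat 1 the first and the last of these were 0.35 and 0.44. Pair-fed rat 1 was also the highest of its group for the mean level of the macrophage list and of the general leukocyte list. For S100a8, S100a9 came first (0.990), followed by Akap12 (0.954), LOC102554959 (0.944), Zcchc7 (0.925) and Etl4 (0.916). LOC102554959 was dim (mean of 3.55).

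Genes that act with the members, their receptors, ligands, partners and inhibitors, were mostly not called. Of 12 listed, 11 were measured, with 0 called higher, 1 called lower and a median difference of -0.03 (-0.05 to 0.05 with 1 array left out). The 1 called was Serpinb9b, a relative of Serpinb9, the intracellular inhibitor of granzyme B. Serpinb9b (1376958_at) read 5.34, 5.29, 5.32, 5.66 and 5.24 in iron-deficient rats 1 to 5 and 8.86, 7.00, 8.10, 5.51 and 8.30 in pair-fed rats 1 to 5. Pair-fed rat 4 lay within the iron-deficient range, and the difference was -2.18 (SE 0.483, false discovery rate of 0, exact permutation p = 0.0159). Serpinb9 itself, named after its value was seen, differed by 0.25 (SE 0.0972, false discovery rate 0.533), so the inhibitor and its relative had differences of opposite sign. The chemokine receptor genes Ccr1 and Ccr3 were dim and differed by 0.04 and -0.05, and the calprotectin receptors Tlr4 and Ager by -0.06 and -0.08. The largest rise of the list was that of Sdc4 (0.37, SE 0.128, false discovery rate 0.159, exact permutation p = 0.0397), which did not pass. Siglec10, which was dim, differed by 0.13.

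Markers of leukocytes in general and of the other immune cells of the liver were examined beside the members. Of the 10 general leukocyte genes, 0 were called and the median difference was -0.06 (0.02 without pair-fed rat 1), with Cd53 at -0.16 (SE 0.1) and Rac2 at -0.11 (SE 0.116). Of 5 B cell genes measured, 0 were called and the median was -0.08 (-0.02 without pair-fed rat 4), with Ms4a1, which encodes CD20, at -0.31 (SE 0.126) and Cd22 at 0.11 (SE 0.0831). Of 9 Kupffer cell and macrophage genes, 0 were called and the median was -0.13 (-0.02 without pair-fed rat 1 and -0.21 without pair-fed rat 5), with Cd68 at -0.23 (SE 0.122) and C1qb at -0.20 (SE 0.126). The 5 hepatocyte genes had a median of 0.00, with Apoa1 and Ttr at 0.06 each.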

How the data were processed

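Biotin-labelled cRNA of total liver RNA was hybridised to Affymetrix rat genome arrays, 1 per rat, and the deposited values are log2 signals that the authors computed from the scanned arrays by RMA (background correction, quantile normalization and summary per probe set) over the 10 arrays. These values were used as deposited, and 0 columns were left out. Samples were grouped by title and treatment: the source field of the control samples names the other diet. The 57 control probe sets were dropped, which left 31042 to test. The platform annotation pairs 20826 with 1 gene, 436 with several and 9780 with none, and current symbols came from RefSeq (GRCr8) through the Entrez ID, with 20758 matched and 0 changed.

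Rank products, the study's own test, were computed in Python 3.11.15 (numpy 2.4.6, pandas 2.3.3, scipy 1.17.1) with 100 permutations of the values within each array. Differences, standard errors, 95% intervals and Benjamini-Hochberg adjusted p-values were obtained with limma 3.58.1 (R 4.3.3) and the diet as its term. Single values were given an exact permutation test, and correlations a permutation test with 100000 resamples. A gene of a list stands by its brightest probe set. All member probe sets were named, and in each of the 9 other lists up to 4 genes with the largest difference among those called. Where none was called, the 2 largest were named. The 5 genes most like Cd52, Ccl5 and S100a8 and a few genes for the check of tissue and blood were also named. Cd48, Ccr1, Ccr3, Tlr4 and Ager were named by their role, and Serpinb9 by its role after its value was seen. Nfe2, Kel, Sdc4 and Siglec10 were named after their values were seen, to show the spread of their lists. The members and lists were chosen with earlier results of these data known. The scripts were tested on simulated data. Alternatives were a rank sum, limma as the test, a filter on dim probe sets, centring of each array, a replicate block, 20 permutations, averaging of the probe sets of each gene, and each array left out in turn. The number of arrays limits the precision, and scan dates were not used here.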

Additional observations from a re-analysis of the deposited data

Results flagged for a closer look

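In each of the 28 groups of 5 values (14 member probe sets in each diet group) the highest and the lowest array were set against the rest by Dixon's criterion, which chance alone passes in about 1 of 20 groups, or 1.4 of 28. In 2 of the 28 an array stood apart, and both were the same rat. S100a8 (1368494_at) read 5.82 in iron-deficient rat 1 and 4.36 to 4.75 in the other 4 rats of the group, a gap of 0.73 of the group's range. S100a9 (1387125_at) read 7.20 in that rat and 5.83 to 6.17 in the others, a gap of 0.75 of the range. These genes varied together over all rats (r = 0.99). That array also had the largest gap between 3′ and 5′ control probe sets, and the part of RNA integrity was not tested.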

How the results depend on the processing

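Cd52 kept its call under the filter on dim probe sets, the centring of arrays, 20 permutations and each array left out (-1.10 to -0.76). It lost the call under every setting that changed the test. Cd52 passed the filter by its mean over all arrays (5.32), with means of 4.87 in iron-deficient and 5.77 in pair-fed rats. Keeping the call under that filter is therefore no support for it. The filter, 20 permutations and a change of test leave the difference of means as it is, so they cannot check its direction. With a rank sum, 5 probe sets were called higher, 29 lower and 0 members (Cd52 -0.89, false discovery rate 0.0905). With limma, 0 were called higher, 0 lower and 0 members at an adjusted p under 0.05 (2168 at an unadjusted p under 0.05; Cd52 -0.89, adjusted p = 0.601). With limma and the replicate number as a block the counts were again 0, 0 and 0 (Cd52 -0.89, adjusted p = 0.647). Whether the numbers mark rats paired in feeding is not known. Deviations of same-numbered rats correlated at -0.04 to 0.09, and 1 of 5 iron-deficient rats correlated best with its own number. This cannot decide the question, since rats matched in food amount need not share deviations in expression. With 1 array left out, 47 to 101 probe sets were called higher (fewest without iron-deficient rats 2, 3 or 5), 90 to 188 lower (fewest without pair-fed rats 2, 3 or 5 or iron-deficient rat 5) and 1 member each time. Among member probe sets, the sign turned with 1 array left out for S100a8 (-0.45 to 0.05), S100a9 (-0.42 to 0.09), Cd8a 1369877_at (-0.11 to 0.06) and Gzmb 1379794_at (-0.06 to 0.01), and Cd8a 1385414_at, at 0.00, ran from -0.08 to 0.07; none was called. The medians of the NK list (-0.04 to 0.02), the receptor and partner list (-0.05 to 0.05) and the general leukocyte list (-0.09 to 0.02) also crossed 0. Of 315 recomputed differences of members and lists, 12 had the sign opposite to that reported, all with 1 array left out. The 315 include the changes of test, the filter and 20 permutations, under which a difference of means cannot change sign. The median r of Cd52 with the red cell genes, an alternative chosen after seeing the data, was 0.72 to 0.92 with 1 array left out, and that with the general leukocyte genes -0.61 to -0.14. The causes of these changes were not tested. Low signal limits 8 of the 14 probe sets, and 5 rats per group limit every interval.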
